A study of Mus musculus with 6 samples.

Results

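Ptgds, Ttr, Hbb-bs, Hba-a1 and Hba-a2 were followed as 5 of 16411 genes listed for single cells of the mouse hypothalamus. They were picked by symbol because earlier results of these data had set their levels apart, so the levels below are a description without a test. All 5 had UMIs (unique molecular identifiers, counted molecules) in each mouse, and none was lost to a filter on low values. Their working name, candidate ambient RNA, means RNA set free from broken cells that droplets take up along with a cell. Droplets without cells were not analysed here, so ambient RNA was not measured directly.

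The cells came from male ob/ob mice, which lack leptin, aged 11 weeks. Every mouse was given 3 ug of FGF1 R50E, a mutant form of fibroblast growth factor 1, into a cerebral ventricle, and the hypothalamus was dissociated on day 5. The labels name 6 mice of this single group, and cells of 4 of them, mice 3, 4, 30 and 34, were analysed here, 1 library per mouse, so nothing below is an effect of the treatment. The 9 cell type labels of the authors were used: Astro (astrocytes), Tany (tanycytes), Epend (ependymal cells), OPC (oligodendrocyte precursors), COP (committed precursors), Olig (oligodendrocytes), Endo (endothelial cells), Micro (microglia) and VLMC (vascular leptomeningeal cells).

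Ptgds encodes the lipocalin-type prostaglandin D synthase, which makes prostaglandin D2 and also leaves the cell as a carrier of lipophilic molecules. In brain it is known from oligodendrocytes, the leptomeninges and the choroid plexus. Ttr encodes transthyretin, a carrier of thyroid hormone and of retinol-binding protein that choroid plexus epithelium makes in bulk. Hbb-bs encodes an adult beta chain and Hba-a1 and Hba-a2 the adult alpha chains of haemoglobin, the oxygen carrier of red blood cells.

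The 20151 cells held a median of 909 to 1066 UMIs per mouse and 3299971 to 8856079 UMIs in all per library, and 194 cell barcodes occurred in more than 1 library, in 391 cells. Mouse 30 stood apart from the other libraries. Of 6641 genes with at least 500 UMIs, 34 (0.512%) were highest in mouse 30 in all 7 cell types that had 50 or more cells in each mouse. Ptgds, Hbb-bs, Hba-a1 and Hba-a2 were each highest in mouse 30 in 6 of these 7 types, so none was among the 34. The median gene was highest in mouse 30 in 2 of them. How many of the 6641 genes reached 6 types was not counted. Ttr was highest in mouse 30 in 0 of the 7. The label VLMC rested on 68 cells, 44 of them from mouse 30, and a list of 14 leptomeningeal genes stood at 14579 to 20882 CPM there, against 15.5 to 88.5 CPM in oligodendrocytes. CPM are the UMIs of a gene per 1000000 UMIs, taken over the summed cells.

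Ptgds was foremost a transcript of oligodendrocytes and of the few VLMC, with a low level in the other 7 types that was highest in mouse 30. It had 91304 UMIs in 8404 cells, or 41.7% of the cells. Ptgds lies on the minus strand of chr2:25466709-25470046 and has 7 exons in the GENCODE annotation of GRCm38, a build used here for gene identity only.

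In oligodendrocytes, Ptgds stood at 12332, 10427, 16817 and 17270 CPM in mice 3, 4, 30 and 34, a mean of 14211 ± 3367 CPM (SD, n = 4). Mice 30 and 34 were the higher pair. The share of oligodendrocytes with a Ptgds UMI was 90.7%, 87.3%, 96.4% and 96.5% in the same order, and 80.5% to 93.3% when each cell was thinned to 500 UMIs. Microglia, a type not known for Ptgds, held a UMI in 13.3%, 38.2%, 64.2% and 17.9% of cells, at a median depth of 939 UMIs against 1136 UMIs in oligodendrocytes. The median oligodendrocyte held 11, 7, 11 and 14 Ptgds UMIs, and the highest held 308. Between 3.46% and 12.7% of the oligodendrocytes of a mouse, 336 cells in all, had no Ptgds UMI.

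VLMC carried the highest levels and the widest spread. Ptgds stood there at 18062, 2084, 34136 and 47087 CPM, from 6, 12, 44 and 6 cells. The mean over mice was 25342 ± 19529 CPM (SD, n = 4), and the range of VLMC enclosed all 4 oligodendrocyte values, so the order of these types was not fixed by the data. The median VLMC held 5, 1, 37.5 and 68.5 Ptgds UMIs, and the highest cell of the whole series, with 921, was a VLMC of mouse 30. VLMC held 19.6% of the Ptgds UMIs of mouse 30, against 0.336%, 0.378% and 1.71% in mice 3, 4 and 34. Oligodendrocytes held 55.7% of the Ptgds UMIs of mouse 30 and 95.3%, 90.5% and 92.5% of those of the others.

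**Figure D1:**
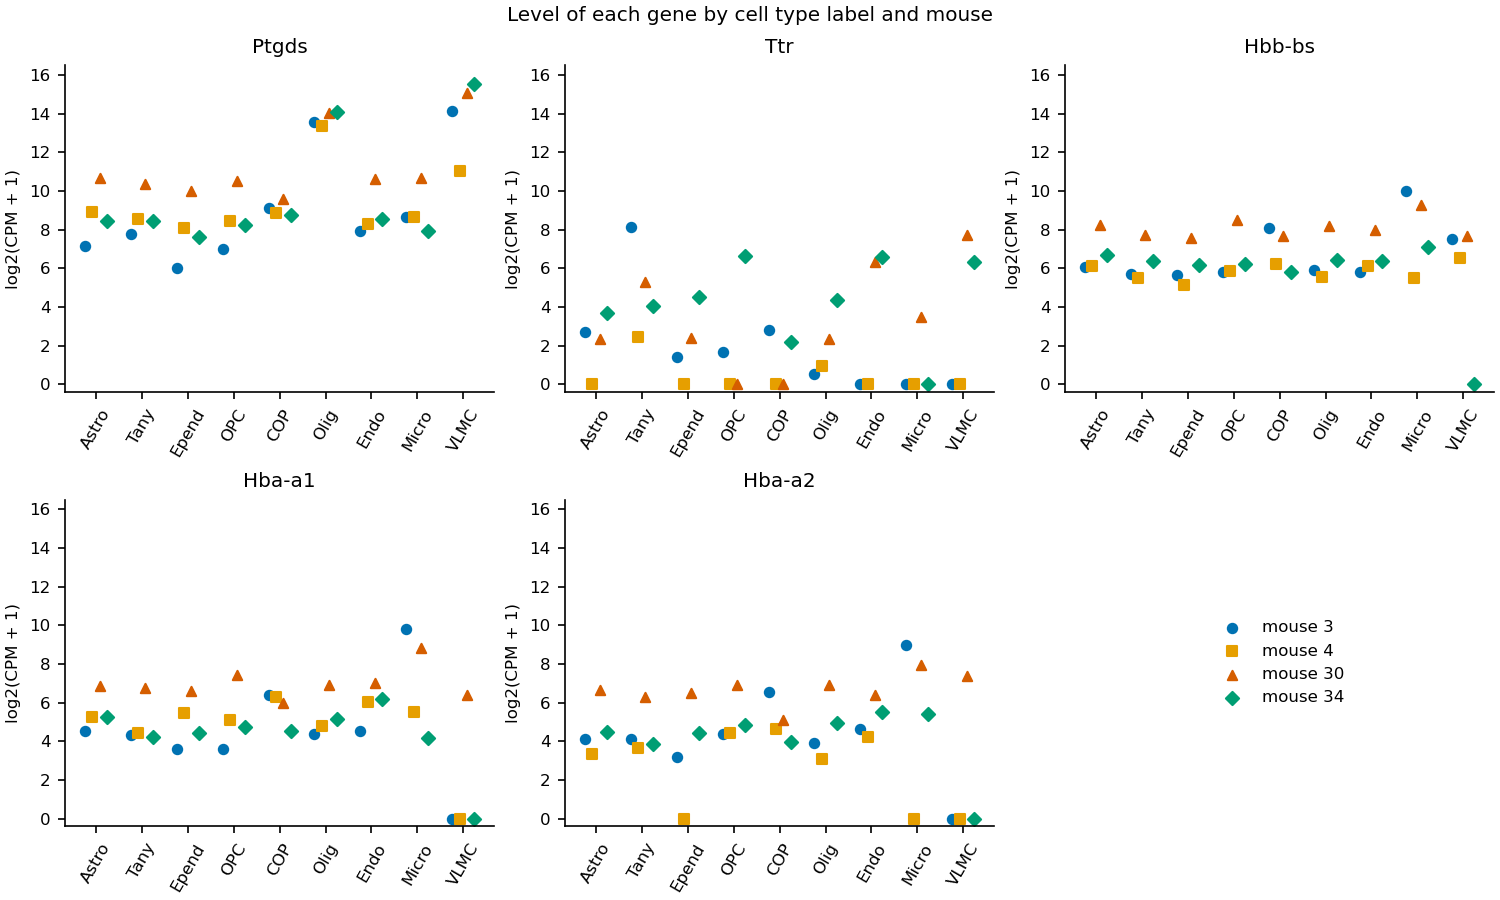
Level of each gene on a log2(CPM + 1) scale by cell type label, 1 point per mouse (the 4 mice by colour and shape). Ptgds lies at 10427 CPM or more in Olig and far lower in 7 other types, where mouse 30 is on top. Ttr is scattered and often at 0. The 3 haemoglobin genes are found in all types, highest in mouse 30 in 6 of the 7 larger ones, with high Micro values in mice 3 and 30.

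In the other types Ptgds stayed at a small part of the oligodendrocyte level. Astrocytes of mice 3, 4, 30 and 34 held it at 141, 479, 1623 and 349 CPM. In tanycytes it was at 215, 378, 1312 and 347 CPM, and in ependymal cells at 63.1, 269, 1031 and 197 CPM. Mouse 30 was the highest and mouse 3 the lowest of the 4 in each of these 3 types. In oligodendrocyte precursors Ptgds was at 127, 353, 1473 and 303 CPM. Endothelial cells gave 247, 308, 1556 and 370 CPM. Microglia gave 397, 402, 1653 and 244 CPM. The value of mouse 30 was 4.19 to 5.85 times the mean of the other 3 mice in these 6 types, and did not overlap with them. In committed precursors it was 1.61 times (775 against 438 to 546 CPM), and in oligodendrocytes 1.26 times, with mouse 34 above it.

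Without mouse 30, the mean Ptgds level was 323 CPM in astrocytes, 313 in tanycytes, 176 in ependymal cells, 261 in oligodendrocyte precursors, 308 in endothelial cells and 348 in microglia. Single mice ranged from 63.1 to 479 CPM in these 6 types and overlapped between all of them. Summed over Astro, Tany, Epend, OPC, COP and Endo, Ptgds was at 1.60%, 3.77%, 7.83% and 1.91% of its oligodendrocyte level in mice 3, 4, 30 and 34. Mouse 30 was the highest of the 4 and mouse 3 the lowest.

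Ptgds rose with the depth of the cell. Cells of each type and mouse were ranked by their UMIs without the 5 genes and cut into 3 equal groups. Over the 6 types without oligodendrocytes, the deepest group held 2.35, 2.27, 2.46 and 1.91 times the Ptgds UMIs of the shallowest in mice 3, 4, 30 and 34. The totals of these groups differed by 1.88, 2.94, 2.48 and 2.13 times, so that Ptgds rose more than the total in mouse 3, less in mouse 4, and about as much in mice 30 and 34. In oligodendrocytes the Ptgds ratio was 1.95, 2.83, 2.33 and 2.22, against total ratios of 1.94, 2.87, 2.17 and 1.90.

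Few cells outside oligodendrocytes held many Ptgds UMIs, and most of these were in mouse 30. Of 3751 cells with 5 or more UMIs, 3450 were oligodendrocytes. In mouse 30, 7.07% of astrocytes, 6.35% of tanycytes, 5.79% of ependymal cells, 6.37% of oligodendrocyte precursors, 8.44% of endothelial cells and 9.47% of microglia held 5 or more. In the other mice each of these types had between 0% and 1.56%. In committed precursors the share was 7.69%, 1.53%, 3.73% and 6.90% in mice 3, 4, 30 and 34, with mouse 30 in the middle.

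Ttr was concentrated instead, with most of its UMIs in a few cells. It had 885 UMIs in 116 cells, or 0.576% of the cells, and 15 cells with 5 or more UMIs held 770 of them. By mouse it had 589, 5, 82 and 209 UMIs in 28, 5, 19 and 64 cells (mice 3, 4, 30 and 34). In the other 101 cells the gene was seen with 1 to 4 UMIs, in 91 of them with 1. The mean was 7.63 UMIs per cell that held any, against a median of 1.05 over 5278 genes outside the 5 with 500 to 2500 UMIs. Of those 5278 genes, 13 (0.246%) reached 2 UMIs per such cell, and 0 reached Ttr (the nearest, Cxcl2, was at 3.82).

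The 3 highest cells lay in mouse 3 under the tanycyte label, with 215, 181 and 163 Ttr UMIs, or 14.2%, 16.4% and 9.37% of all UMIs of the cell. None of the 3 had a UMI of the 6 tanycyte markers Rax, Col23a1, Crym, Dio2, Gpr50 and Ppp1r1b. They held 9, 7 and 5 UMIs of a list of 15 choroid plexus genes, Kl and Enpp2 in each. Their doublet scores, deposited for each cell on a scale from 0 to 1, were 0.0487, 0.0599 and 0.0777, where the median of the mouse was 0.0584. The tanycyte level of Ttr followed from these cells: it was 281 CPM in mouse 3 and 4.54, 37.9 and 15.7 CPM in mice 4, 30 and 34, while the share of tanycytes with a Ttr UMI was 0.935%, 0.577%, 0.940% and 1.04%. Mouse 3 was thus far above the others in level and among them in the share of cells.

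The 15 high cells were spread over 7 labels: 5 tanycytes, 2 each of endothelial cells, oligodendrocyte precursors, oligodendrocytes and VLMC, 1 ependymal cell and 1 astrocyte. Mice 3, 30 and 34 gave 3, 4 and 8 of them and mouse 4 none, its highest Ttr cell holding 1 UMI. Markers of the label were found in 12 of the 15, all except the 3 highest cells. Their doublet scores ranged from 0.0103 to 0.0988 with a median of 0.0777. The score was above the median of the mouse in 11 of 15 cells, and in 0 of 15 at or above its 95th percentile. Choroid plexus genes had a UMI in 12 of the 15, at 1641 CPM (46 UMIs), against 368 CPM (42 UMIs) in 75 cells of 0 Ttr UMIs from the same mice and labels. These were matched for depth in mice 3 and 34, but in mouse 30 the median total was 2716 UMIs in the 4 high cells and 1459 in their 20 matched cells. Without mouse 3, whose 3 cells held 21 of the 46 UMIs, the choroid list was at 1031 CPM in the high and 389 CPM in the matched cells, and without mouse 30 at 2724 and 425 CPM. Of the 15 choroid genes, Slc4a5 and Kcne2 were not in the table and Aqp1 and Tmem72 were listed at 0. Enpp2, Clic6 and Calml4, the most abundant of the others, were highest in oligodendrocytes, astrocytes and ependymal cells over all cells. Leptomeningeal genes were at 7990 CPM against 2945 CPM in the matched cells, from 3 of the 15 cells, and at 0 and 106 CPM without mouse 30. The part of choroid plexus cells in the Ttr values was not tested.

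**Figure D2:**
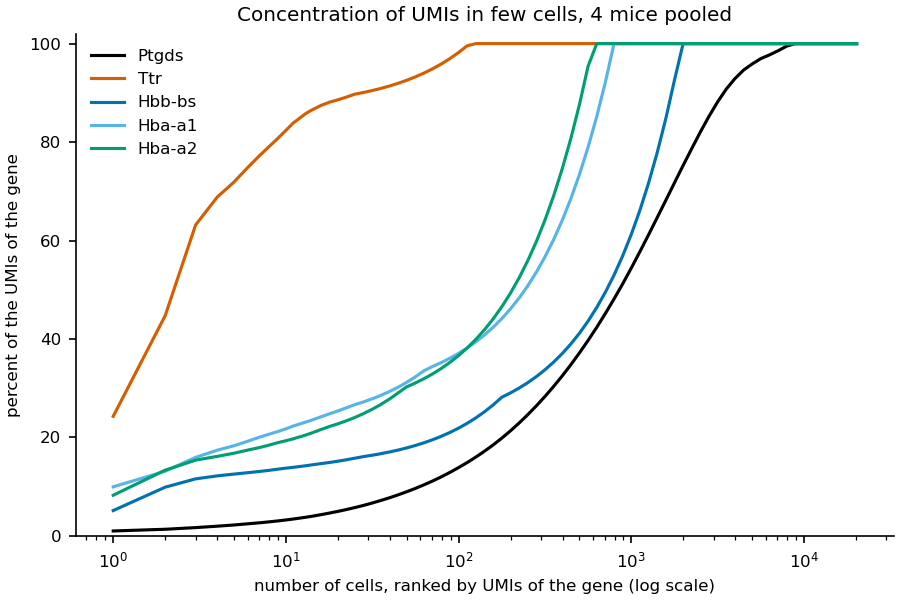
Cumulative percent of the UMIs of each gene (y) over the cells of 4 mice ranked from the highest down (x, log scale). Ttr starts at 24.3% in 1 cell, is at 87.0% with 15 cells and is complete with 116; Ptgds needs 853 cells and Hbb-bs 720 cells to reach 50%.

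The levels of the other types rested on few cells. Astrocytes of mice 3, 4, 30 and 34 gave 5.44, 0, 4.00 and 12.0 CPM, the UMIs of mice 3 and 34 being spread over 9 and 16 cells, and oligodendrocytes 0.431, 0.947, 4.11 and 19.5 CPM, the last from 36 UMIs of which 23 lay in 2 cells. Ependymal cells of mouse 34 had 13 of their 18 UMIs in 1 cell. Oligodendrocyte precursors had 2.19, 0, 0 and 98.7 CPM, the last from 43 UMIs of mouse 34, of which 40 lay in 2 cells. Endothelial cells had 0, 0, 79.7 and 94.8 CPM, of which 1 cell of mouse 30 gave all 21 UMIs and 1 of mouse 34 gave 50 of 58. Where a type of a mouse had 0 Ttr UMIs, the limit of 3 counts allowed a share with a UMI of up to 0.417% in the 719 astrocytes of mouse 4, 1.22% in its 245 ependymal cells, 8.82% in its 34 microglia and 25% in its 12 VLMC. Without the 1% of cells of each mouse that held most, no Ttr UMI was left.

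The haemoglobin genes differed from both, with mostly single UMIs in cells of all types. Hbb-bs had 2484 UMIs in 1962 cells, 1784 of them with 1. Hba-a1 had 1103 UMIs in 794 cells, and Hba-a2 786 in 598. Together these 3 genes had 4373 UMIs in 3067 cells, or 15.2% of the cells.

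The 2 alpha genes cannot be told apart with confidence from these counts, and the same holds in part for Hbb-bs and Hbb-bt, an adult beta gene beside it that was not picked. Hba-a1 lies on the plus strand of chr11:32283511-32284465 and Hba-a2 on that of chr11:32296489-32297298. Hbb-bs lies on the minus strand of chr7:103826534-103828096 and Hbb-bt on that of chr7:103812524-103813996. Their coding sequences are shown around the single base in which each pair differs, because the rest of the coding sequence fits both genes. They were read from the GENCODE transcripts of GRCm38, 5′ to 3′, and capitals mark the differing base. It is C381T from Hba-a1 to Hba-a2 and C417T from Hbb-bs to Hbb-bt, counted from the first base of the coding sequence.
Hba-a1: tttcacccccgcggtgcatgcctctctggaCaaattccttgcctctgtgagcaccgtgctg
Hba-a2: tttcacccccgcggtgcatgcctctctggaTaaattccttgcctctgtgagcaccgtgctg
Hbb-bs: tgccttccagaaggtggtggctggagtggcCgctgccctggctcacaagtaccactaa
Hbb-bt: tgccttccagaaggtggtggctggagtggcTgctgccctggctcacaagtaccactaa

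The alpha genes share 428 of 429 coding bases and the beta genes 443 of 444, and the encoded chains are identical in each pair. The 3′ ends, which these libraries read, are more distinct in the beta pair (69.4% identical) than in the alpha pair, whose 3′ untranslated regions of 74 and 90 bases align without a mismatch. Values below therefore use the sum of the 3 genes or of the alpha pair where they can.

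The sum of the 3 genes over all cells came to 148, 99.5, 475 and 140 CPM for mice 3, 4, 30 and 34, with a UMI in 10.1%, 9.53%, 36.0% and 14.2% of the cells. Mouse 30 was the highest in both measures, and the other 3 mice lay close together. Hbb-bs alone was at 84.7, 53.6, 258 and 84.9 CPM, Hba-a1 at 35.7, 35.4, 121 and 31.6 CPM, and Hba-a2 at 27.4, 10.5, 96.1 and 23.4 CPM. Each of the 3 had its highest value in mouse 30, without overlap.

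The levels of the types were compared within each mouse. For mice 3, 4, 30 and 34 the astrocyte sum came to 106, 114, 516 and 159 CPM. In oligodendrocytes it was at 92.3, 80.5, 523 and 147 CPM, and in tanycytes at 86.5, 76.0, 395 and 112 CPM. In endothelial cells, the lining of the blood vessels, it was at 101, 152, 467 and 198 CPM. This was within the range of the other types in mice 3 and 30, below only the committed precursors in mouse 4, where 1 cell held 34 of their 52 UMIs, and the highest value in mouse 34, where the 4 highest cells held 24, 20, 7 and 6 of 121 UMIs. Ependymal cells gave 67.9, 78.0, 371 and 112 CPM and oligodendrocyte precursors 85.4, 111, 654 and 126 CPM. Higher values in single mice were seen in the committed precursors at 445, 177, 302 and 90.6 CPM and in the microglia at 2421, 89.4, 1298 and 194 CPM. VLMC had 1, 2, 38 and 0 haemoglobin UMIs.

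The ratio of the highest to the lowest of the 7 larger types was 6.56, 2.32, 2.17 and 2.18 in mice 3, 4, 30 and 34, the value of mouse 3 coming from its committed precursors. For Hbb-bs alone, the geometric mean of that ratio over mice was 2.57. The same ratio was 4.21 for Hba-a1 and 61.6 for Ptgds. Its median was 3.23 over the genes with at least 500 UMIs and a UMI in all 7 types of each mouse. Genes missing from a type of a mouse, Hba-a2 and Ttr among them, have no such ratio. In committed precursors, the highest type for Hba-a1 in mice 3 and 4, 1 cell held 35 of 41 and 16 of 23 Hba-a1 UMIs, so its ratio rests in part on single cells.

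Haemoglobin UMIs were more numerous in deeper cells. In cells with fewer than 5 of them, the deepest of 3 equal groups held 1.38, 2.18, 1.59 and 1.55 times the haemoglobin UMIs of the shallowest in mice 3, 4, 30 and 34, where totals differed by 1.90, 2.92, 2.42 and 2.07 times. With all cells kept, a setting added after seeing the data, the ratios were 2.23, 2.27, 1.63 and 1.69. The order of the 2 ratios in mouse 3 thus turned with the high cells, among them a deep committed precursor of 193 UMIs, while in mice 4, 30 and 34 haemoglobin rose less than the total in both settings.

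Pooled over mice, alpha and beta chains were in like proportion in the 7 types. In cells with fewer than 5 UMIs the alpha genes made up 40.1% of the haemoglobin UMIs over all cells. By type they made up 37.5% in astrocytes, 40.2% in tanycytes, 39.4% in ependymal cells, 42.2% in oligodendrocyte precursors, 39.3% in committed precursors, 40.9% in oligodendrocytes and 42.4% in endothelial cells. By mouse they made up 37.4%, 43.7%, 43.6% and 36.2%. In single types of a mouse the share ran from 24.7% to 61.1%, and the exact 95% intervals missed the pooled share in 4 of 28 sums, above it in tanycytes and ependymal cells of mouse 30 and below it in the same types of mouse 34.

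**Figure D3:**
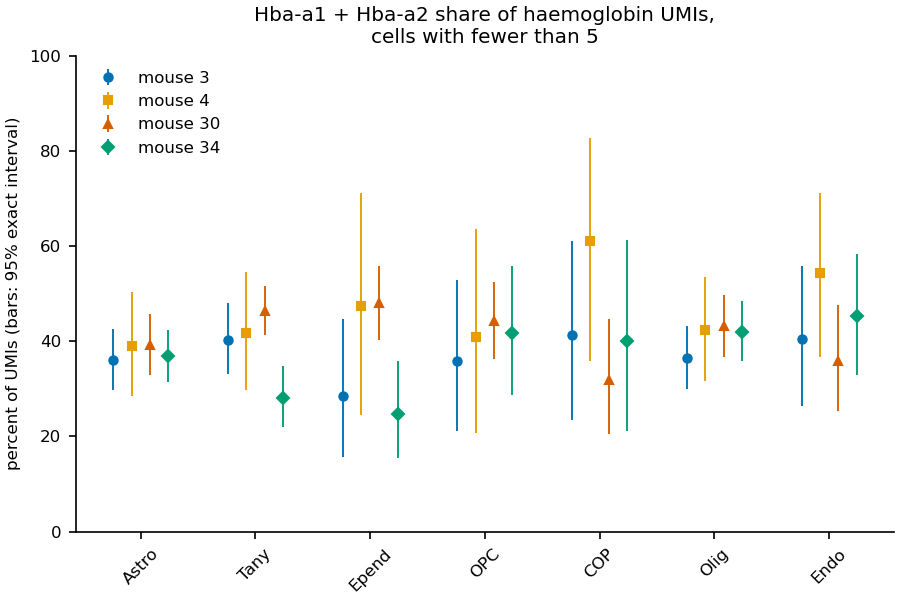
Hba-a1 plus Hba-a2 UMIs as percent of all haemoglobin UMIs in cells with fewer than 5 (y), by type (x) and mouse (colour and shape), with exact 95% intervals that cover counting error. The alpha share, 40.1% over all cells, runs from 24.7% to 61.1% over the 28 sums.

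A few cells held more haemoglobin. In all, 30 cells had 5 or more UMIs and together held 851 of 4373 UMIs, and mice 3, 4, 30 and 34 gave 5, 4, 12 and 9 of them. The highest was a microglial cell of mouse 3 with 303 UMIs, 18.8% of its total, among them 128 of Hbb-bs and 175 of the alpha pair. It held 13 UMIs of the 6 microglia markers and a doublet score of 0.141, at the 93.1 percentile of its mouse. The second was a committed precursor of mouse 3 with 193 haemoglobin UMIs and a score of 0.0599, and the third a microglial cell of mouse 30 with 89 and a score of 0.0918. They held 303 of the 323 haemoglobin UMIs of microglia in mouse 3, 193 of the 222 of committed precursors in mouse 3 and 89 of the 128 of microglia in mouse 30.

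Of the 30 cells, 9 were labelled endothelial, 6 oligodendrocyte, 5 astrocyte and 4 ependymal, and every one of the 30 held markers of its own label. Their doublet scores ran from 0.0153 to 0.233 with a median of 0.0536; 14 of 30 were above the median of their mouse and 5 of 30 at or above its 95th percentile. Hbb-bs and an alpha gene occurred together in 23 of them. The alpha share was 56.2% in these 30 cells and 40.1% in the cells with fewer UMIs. Hbb-bt made up 1.84% of Hbb-bs plus Hbb-bt UMIs in the 30 cells and 11.6% in the others. The 30 cells were picked on the 3 haemoglobin genes and not on Hbb-bt, which lowers its share in them, and 3 cells held most of their UMIs, the second of them with 75 alpha UMIs of 193, so these shares are a description. Of 12 genes listed as erythroid, 7 were not in the table, Klf1 was listed at 0 and Alas2, the erythroid enzyme that opens haem synthesis, had 7 UMIs in all cells. The list was at 224 CPM (13 UMIs, in 9 cells) in the 30 cells. In 150 cells of 0 haemoglobin UMIs from the same mice and labels it was at 126 CPM (33 UMIs, in 30 cells). The list includes Hbb-bt, and its members Bpgm and Fech are highest in oligodendrocytes over all cells. The part of red cells was not tested.

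**Figure D4:**
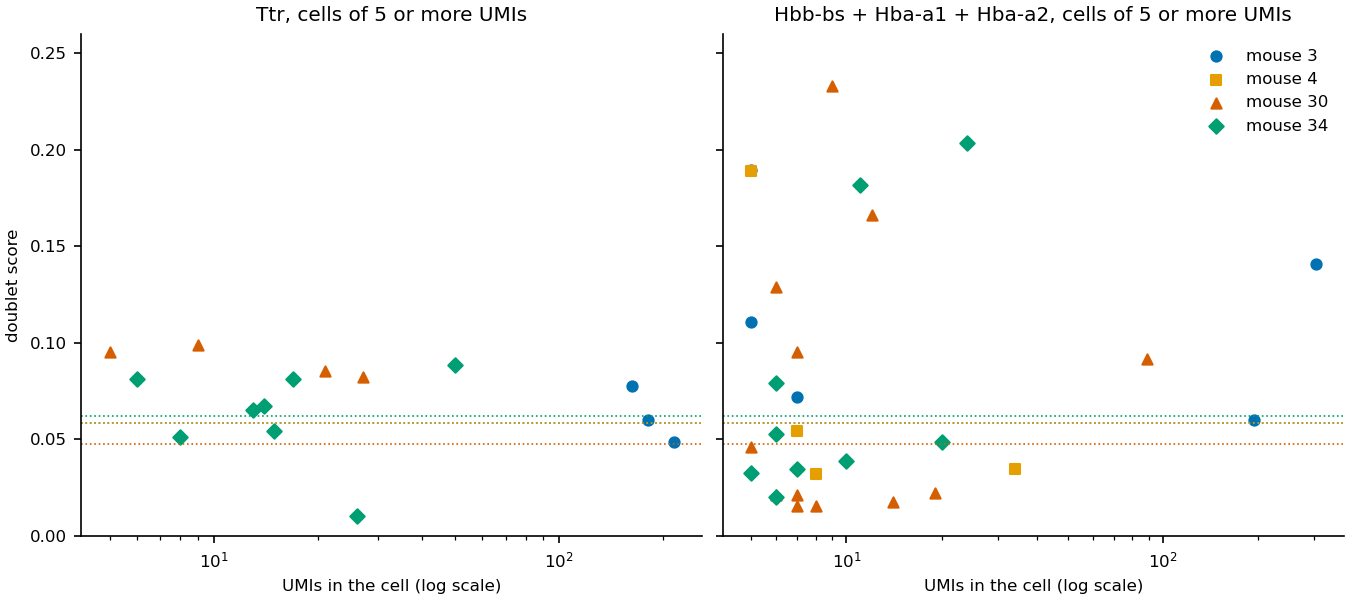
Doublet score (y) against UMIs of the gene (x, log scale) for the 15 cells with 5 or more Ttr UMIs (left) and the 30 cells with 5 or more haemoglobin UMIs (right), coloured by mouse; dotted lines mark the median score of each mouse. The 3 Ttr cells above 100 UMIs lie between 0.0487 and 0.0777, and 1 point of mouse 3 at 5 UMIs lies under that of mouse 4.

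Expression of other genes was then compared between the cells high in one of the genes (5 or more UMIs) and cells with 0 UMIs of it, matched for mouse, label and total UMIs, up to 5 for each high cell. The counts of each mouse were summed per class and tested with the edgeR quasi-likelihood F test, two-sided, with mouse as a block and Benjamini-Hochberg adjustment over all genes tested. The 5 genes were left out of the test.

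For haemoglobin, mice 3, 30 and 34 had enough high cells. Of 513 genes tested, 0 (0%) passed an adjusted p of 0.05 by edgeR, 23 had an unadjusted p below 0.05, and DESeq2 called 0 as well, with 3 below an unadjusted p of 0.05. Among the genes of haem and iron handling, Fth1 and Ftl1, the ferritin chains, were tested and not called. The erythroid list had no member among the tested genes, so the comparison covered none of them. With 26 high cells in the fit, only abundant genes could be compared. For Ttr, only mouse 34 had 5 high cells, and no test was made at that limit. With a limit of 3 UMIs, 323 genes were tested by edgeR in 3 mice, with 0 called and 23 below an unadjusted p of 0.05, and in mouse 30 the median total was then 4539 UMIs in high and 1473 in matched cells.

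Oligodendrocytes rich in Ptgds differed from oligodendrocytes without it in genes that mark states of the mature cell, with Il33 and Opalin higher and Klk6 and S100b lower. The 336 cells without Ptgds (155, 110, 17 and 54 in mice 3, 4, 30 and 34) were each set beside 1 cell of equal depth with 5 or more UMIs. Median totals were equal in each mouse, at 1557, 838, 811 and 1175.5 UMIs. Of 1399 genes tested, 83 (5.93%) were called by edgeR, 39 (2.79%) higher and 44 (3.15%) lower in the Ptgds-high cells, and 57 of the 83 had the same direction in 4 of 4 mice. The median log2 fold change of all tested genes was 0.01.

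Il33, a cytokine that is stored in the nucleus, was at 495, 411, 316.5 and 402 CPM in the Ptgds-high cells of mice 3, 4, 30 and 34 and at 66.0, 71.4, 0 and 43.1 CPM in the matched cells. All 4 high sums were above all 4 matched sums, a log2 fold change of 2.88 ± 0.27 (SE; edgeR, adjusted p 2.13e-23). Opalin, a membrane protein of mature oligodendrocytes, was at 1378, 1089, 1076 and 949 CPM against 256, 277, 887 and 201 CPM. Its matched value in mouse 30, from 17 cells, came close to the high ones, and Opalin was higher in 4 of 4 mice, by 2.13 ± 0.15 on the log2 scale (edgeR, adjusted p 2.57e-43).

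On the other side, Klk6, a secreted protease of oligodendrocytes, was at 20.6, 8.93, 0 and 14.4 CPM in the Ptgds-high cells against 454, 348, 127 and 330 CPM. The classes did not overlap, with a log2 fold change of -4.53 ± 0.37 (edgeR, adjusted p 1.85e-31). S100b, a calcium-binding protein of glia, was at 388, 375, 253 and 460 CPM against 1798, 1366, 1140 and 1478 CPM, again without overlap. Its log2 fold change reached -2.01 ± 0.12 (edgeR, adjusted p 3.68e-54).

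The other genes named by rule that were higher in 4 of 4 mice were Cd9 (log2 fold change 1.75) and Cd63 (1.26), which encode tetraspanins, Jph4 (1.54), Tmod1 (1.22), which caps actin filaments, Clmn (1.11), Erbb2ip (0.97), Tnni1 (0.96) and Faim2 (0.90). Those lower in 4 of 4 mice were Marcksl1 (-1.65), Cpox (-1.57), an enzyme of haem synthesis, Plin3 (-1.56), a lipid droplet protein, Mapre2 (-1.47), which binds microtubule ends, Pmp22 (-1.39), a myelin protein of peripheral nerve, Cpd (-1.09), Sepp1 (-1.06), a selenium carrier, and Rasgrp3 (-1.03). These 20 genes had the same direction under every alternative in which they were tested, but 12 of 20 were called by DESeq2, 16 of 20 by edgeR without the block, and 12 of the 16 tested both without mouse 3 and without mouse 4. Over all genes DESeq2 called 25 and edgeR without the block 26.

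By list, 9 of 11 genes of mature oligodendrocyte state were tested by edgeR. Il33, Opalin and Qdpr (0.81) were higher, and Klk6, S100b, Anln (-1.60, lower in 3 of 4 mice), Apod (-0.78) and Trf (-0.39, lower in 3 of 4) were lower, while Car2 stood at 0.24 without a call. The median of the 9 was -0.39. All 10 oligodendrocyte markers were tested, with a median of -0.03. Among them Mal (0.87) and Opalin were higher and Mobp (-0.35) was lower. Of 4 tested genes of haem and iron handling, Cpox and Fth1 (-0.31) were lower. The single tested members of the prostaglandin list (Ptges3, -0.07), the thyroid hormone list (Thra, 0.22), the choroid list (Enpp2, -0.01), the erythroid list (Bpgm, 0.18), the precursor list (Olig1, 0.08) and the neuron list (Meg3, -0.25) were not called, nor were 4 astrocyte genes (median 0.09). The number of calls was 32 without mouse 3, 27 without mouse 4, 100 without mouse 30 and 66 without mouse 34, and 31, 27, 79 and 57 of the 83 were among them. Median doublet scores were 0.0462, 0.0526, 0.0263 and 0.0548 in the high cells and 0.0373, 0.0489, 0.0344 and 0.0337 in the matched cells of mice 3, 4, 30 and 34. The median mitochondrial percent was 11.8, 14.1, 14.9 and 14.5 in the high and 10.9, 14.3, 14.4 and 12.9 in the matched cells, higher in 3 of 4 mice.

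**Figure D5:**
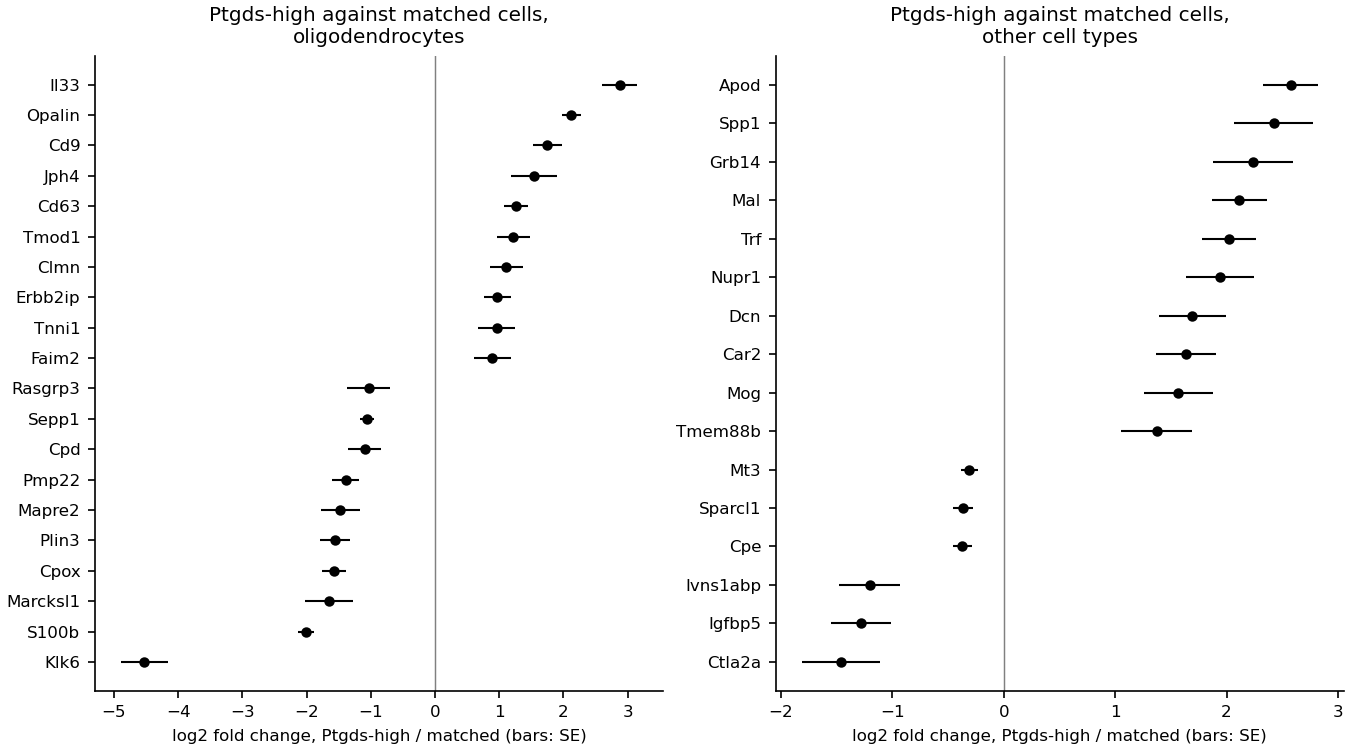
Log2 fold change with its standard error for the genes named by rule, in Ptgds-high against matched oligodendrocytes (left, 10 higher and 10 lower) and in Ptgds-high against matched cells of the other types (right, 10 higher and 6 lower). Klk6 at -4.53 and Il33 at 2.88 lie farthest out on the left, and Apod at 2.57 on the right.

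Ptgds-high cells under the other labels held more transcripts of oligodendrocytes than cells of the same label without Ptgds. The comparison took 273 high cells (31, 22, 169 and 51 in mice 3, 4, 30 and 34) and 1311 matched cells. The other 28 high cells found no match. In mouse 30 the match in depth was incomplete, with median totals of 1230 UMIs in high and 908 in matched cells. Of 3480 genes tested, 28 (0.805%) were called by edgeR, 22 (0.632%) higher and 6 (0.172%) lower, and 26 of the 28 had the same direction in 4 of 4 mice. The median log2 fold change of all tested genes was -0.02.

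Apod, an apolipoprotein of the lipocalin family like Ptgds, was at 449.6, 1526, 254 and 364 CPM in the Ptgds-high cells of mice 3, 4, 30 and 34 and at 73.6, 69.3, 80.4 and 60.1 CPM in the matched cells. The classes did not overlap, with a log2 fold change of 2.57 ± 0.25 (edgeR, adjusted p 2.10e-08). Mal, a myelin lipid raft protein, was at 449.6, 264, 150.1 and 289 CPM against 70.4, 56.7, 57.4 and 46.8 CPM, a log2 fold change of 2.12 ± 0.24 (adjusted p 9.53e-07 by edgeR). Here, too, the classes did not overlap. Trf, which encodes transferrin, was at 519.8, 235, 133.5 and 171 CPM against 112, 81.9, 42.5 and 24.5 CPM (2.02 ± 0.24, adjusted p 1.57e-06 by edgeR).

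Further genes named by rule as higher in 4 of 4 mice were Spp1 (log2 fold change 2.42), which encodes osteopontin, Grb14 (2.24), Nupr1 (1.94), Car2 (1.64), a carbonic anhydrase of oligodendrocytes, Mog (1.57), a myelin protein, Tmem88b (1.37) and Dcn (1.69), which encodes the matrix protein decorin. The Dcn value rested on the choice of cells. It was at 337, 557.5, 58.4 and 74.9 CPM against 48.0, 132, 42.5 and 22.3 CPM. With 1 matched cell per high cell, where both classes hold equal numbers of each label, its log2 fold change was -0.04. The change was 0.80 and not called when matched cells could hold 1 Ptgds UMI, and 1.26 and not called without mouse 3. All 6 called genes that were lower by edgeR were so in 4 of 4 mice, but DESeq2 called 6 genes higher and 0 lower (84 at an unadjusted p below 0.05), and edgeR without the block called none (66 at an unadjusted p below 0.05). The 6 were Ctla2a (-1.46), Igfbp5 (-1.28), Ivns1abp (-1.20), Cpe (-0.37), Sparcl1 (-0.37) and Mt3 (-0.31). The last 3 are abundant in astrocytes.

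By list, 6 of 7 tested oligodendrocyte markers were higher by edgeR, among them Mal, Mog, Cldn11 (1.00, higher in 3 of 4 mice), Mag (0.96) and Mobp (0.77). Mbp stood at 0.27 without a call, and the median of the 7 was 0.96. Of 5 tested state genes, Apod, Trf, Car2 and Qdpr (1.17) were higher. Trf, Car2 and Qdpr had their highest level over all cells in oligodendrocytes, and Apod in VLMC (4205.5 CPM). Of 3 tested leptomeningeal genes, Dcn was higher and Mgp and Bgn were not called (median of the 3, 1.30). Fth1 was higher (0.50) among 4 tested genes of haem and iron handling, and Meg3 (0.54) among 2 tested neuron genes. No call was made among 7 astrocyte, 6 ependymal, 6 endothelial, 5 committed precursor, 3 precursor, 3 tanycyte, 3 mural, 2 microglia, 2 choroid, 2 prostaglandin, 6 thyroid hormone and 1 erythroid genes that were tested.

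The summed oligodendrocyte list stood at 11755 CPM in the high cells and 8913 CPM in the matched cells. The leptomeningeal list was at 896 and 289 CPM, with a UMI in 88 of 273 and 178 of 1311 cells. That list is highest in VLMC, whose share differed between the classes, so its values were not compared at an equal mix of labels. The oligodendrocyte list was at 7705 and 5948 CPM without mouse 3 and at 19523 and 13314 CPM without mouse 30, higher in the high cells each time. Median doublet scores were 0.0682, 0.0865, 0.0584 and 0.0769 in the high cells of mice 3, 4, 30 and 34 and 0.0615, 0.0609, 0.0508 and 0.0653 in the matched cells, higher in 4 of 4 mice. The median mitochondrial percent of the cells was 8.67, 13.4, 13.8 and 12.3 in the high cells and 8.03, 12.5, 12.9 and 11.1 in the matched cells, also higher in 4 of 4 mice. The part of doublets, of mitochondrial RNA, of free RNA and of leptomeningeal cells in these differences was not tested. With VLMC and COP left out, 15 of 1646 genes were called, of which 11 were among the 28. Of the 28, 18 were tested there, all with the same direction. Of the 16 genes named by rule, 10 were tested there and 5 called. Single mice moved the count to 11 (without mouse 3), 38 (without mouse 4), 19 (without mouse 30) and 13 (without mouse 34).

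Both comparisons called 10 genes in common. Of these, Mal, Qdpr, Tspan2, Sept4 and Grb14 were higher with Ptgds in both, and Apod, Trf, Fth1 and Mobp were among those lower in oligodendrocytes and higher in the other types. The 2 comparisons share their mice but no cells.

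The genes whose levels followed each of the 5 most closely were sought over 28 sums of 7 types and 4 mice, by Pearson's r of log2(CPM + 10). These sums share libraries and depth, so r is a description. For Ptgds they were Slc48a1, Arrdc3, Pex5l, Opalin (r = 0.87 for each) and Cers2 (0.86). For Hbb-bs they were the chemokine genes Ccl7 (0.82), Ccl12 (0.82) and Ccl2 (0.73), the lysozyme gene Lyz2 (0.72) and Cxcl10 (0.68). For Hba-a1 they were Ccl7 (0.77), Ccl12 (0.75), Cxcl2 (0.73), Rps28 (0.71) and Ccl2 (0.68), and for Hba-a2 Ccl7 (0.78), Ccl12 (0.77), Ccl2 (0.74), Cxcl2 (0.72) and Lyz2 (0.71). For Ttr none was above 0.59, the first being Ndufa7 (0.59), Psmb4, Chmp2a, Rpl10-ps3 and Snhg18 (0.55 for each). Among the 5 genes themselves, r was 0.93 between Hbb-bs and Hba-a2, 0.84 between Hbb-bs and Hba-a1 and 0.80 between Hba-a1 and Hba-a2. Between Ptgds and the haemoglobin genes it was 0.37 to 0.39, and between Ptgds and Ttr -0.09.

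Other genes of the 3 pathways had their highest levels in several types, by CPM pooled over the 4 mice, which the types draw on unequally. Of 19 prostaglandin genes, 17 were in the table and 14 had UMIs. Ptges3, a prostaglandin E synthase and cochaperone, was highest in ependymal cells (475 CPM). Ptgs1 (313.5 CPM), which encodes a cyclooxygenase that supplies the substrate of Ptgds, Hpgds (276 CPM), the haematopoietic prostaglandin D synthase, and Hpgd (217 CPM), which degrades prostaglandins, were highest in microglia. Ptgdr and Ptgdr2, the receptors of prostaglandin D2, were not in the table, and Ptger2, Ptger3 and the transporter Slco2a1 were listed at 0. Of 13 genes of thyroid hormone and retinol handling, 12 had UMIs. The thyroid hormone receptor Thra was highest in committed precursors (852 CPM), Crym, which binds thyroid hormone in the cell, in tanycytes (645 CPM), and the thyroxine transporter Slco1c1 in endothelial cells (613 CPM). Of 18 genes of haem and iron handling, 17 had UMIs. Fth1 (10211 CPM) and Cpox (268 CPM) were highest in oligodendrocytes, Ftl1 (7830 CPM) in microglia, and the iron exporter Slc40a1 (201 CPM) in endothelial cells.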

How the data were processed

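Male ob/ob mice given FGF1 R50E were profiled by 10x 3′ v2 single-cell libraries, 6 labelled samples, of which 4 had cells in the table and 2 (mice 12 and 37) were not analysed here. The deposited UMI counts were whole numbers per gene and cell, whose sums equalled the totals the authors listed for all 20151 cells. The authors also deposited a mitochondrial percent and a doublet score, a fraction from 0 to 1, for each cell; the sources used here do not give the caller or whether doublets were removed, and none were removed here. The submitters' processing notes name Cell Ranger 1.2 and Seurat, and the builds GRCm38, mm10 and GRCh38 without a role. The table's 50172 cells of 12 libraries outside the labelled samples were not used. Cells held 487 to 13499 UMIs.

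The genes, lists and comparisons were chosen with earlier results of these data known. Counts were summed per mouse, type or class and tested with edgeR 4.0.16 (R 4.3.3; quasi-likelihood F test after TMM and filterByExpr), with Benjamini-Hochberg adjustment. High and matched sums come from the same mouse, so mouse was the block. A mouse entered with 5 high cells and a test needed 3 mice. The standard errors (SE) were worked back from the log2 fold change and its F value. The p-values rest on how the difference between high and matched sums varied over mice, with a dispersion estimate that borrows from all tested genes. There were 4 mice in the Ptgds and 3 in the haemoglobin and Ttr comparisons. Intervals are exact (Clopper-Pearson, 95%) and cover counting error only, as does the limit of 3 counts for a count of 0. Genes were named by rule: the 10 largest called changes per direction shared by all mice, the 5 most alike genes, and list members, some of which are not reported here. Alternatives were DESeq2 1.42.0, no filter, limits of 3 or 10 UMIs, 1 matched cell, matched cells with up to 1 UMI, no block and each mouse left out; for levels and shares, pooling, leaving out cells of doublet score above 0.2 or the top 1%, and thinning to 500 UMIs. Leaving out VLMC and COP, list levels without 1 mouse and depth ratios with all cells were chosen after seeing the data. In simulated counts with 200 changed genes, 73%, 86% and 65% of 2-fold and 95%, 100% and 95% of 4-fold changes were called for haemoglobin (513 genes), Ptgds in oligodendrocytes (1399 genes) and Ptgds in other types (3480 genes), with 1.18%, 2.62% and 1.84% false calls. Each gene was simulated at a common mean level for all mice, and 200 changed genes eased the adjustment, most of all among 513. These shares are therefore no measure of what the fits to the real counts could find. Other tools were Python with numpy 2.4.6, scipy 1.17.1, pandas 2.3.3 and matplotlib 3.10.9.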

Additional observations from a re-analysis of the deposited data

Results flagged for a closer look

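The levels of the 5 genes and of the haemoglobin sum were screened over the 4 mice for 1 mouse whose gap to the nearest other took up more of the range than Dixon's 95% critical value for 4 samples. Of 67 groups screened, 29 had such a mouse, with mouse 30 accounting for 26. By chance about 1 in 20 groups would have one. The genes were picked with these levels known and the groups overlap in cells and genes, so the screen is a description and not a test, and no cause was weighed.

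In mouse 30, Ptgds was at 1312 CPM in tanycytes (215 to 378 in the others), 1473 CPM in oligodendrocyte precursors (127 to 353), 1556 CPM in endothelial cells (247 to 370) and 1653 CPM in microglia (244 to 402). Hbb-bs was at 258 CPM over all cells (53.6 to 84.9), 300.2 CPM in astrocytes (67.1 to 100.5), 365 CPM in oligodendrocyte precursors (54.7 to 73.4), 288 CPM in oligodendrocytes (46.4 to 84.0) and 254 CPM in endothelial cells (54.8 to 81.8).

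Hba-a1 was at 121 CPM over all cells of mouse 30 (31.6 to 35.7 in the others), 116 CPM in astrocytes (22.2 to 37.5), 106 CPM in tanycytes (17.9 to 20.4), 169.8 CPM in oligodendrocyte precursors (10.9 to 32.8) and 117 CPM in oligodendrocytes (19.8 to 34.1). Hba-a2 was at 100.1 CPM in astrocytes (8.99 to 21.0), 76.9 CPM in tanycytes (11.3 to 16.2) and 119 CPM in oligodendrocyte precursors (19.7 to 27.5). In VLMC, Hba-a1 and Hba-a2 were at 83.2 and 166 CPM in mouse 30, and the other 3 mice had 0 UMIs of either in 6, 12 and 6 cells.

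The sum of the 3 haemoglobin genes was at 475 CPM over all cells of mouse 30 (99.5 to 148 in the others), 516 CPM in astrocytes (106 to 159), 395 CPM in tanycytes (76.0 to 112), 371 CPM in ependymal cells (67.9 to 112), 654 CPM in oligodendrocyte precursors (85.4 to 126) and 523 CPM in oligodendrocytes (80.5 to 147).

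Ttr was set apart in a different mouse each time: at 281 CPM in tanycytes of mouse 3 (4.54 to 37.9 in the others), at 98.7 CPM in oligodendrocyte precursors of mouse 34 (0 to 2.19) and at 10.1 CPM, 1 UMI, in microglia of mouse 30 (0 in the others). Hba-a2 made up 22.9% of the alpha UMIs in mouse 4 and 42.5% to 44.3% in the other mice, from genes that share all but 1 of their 429 coding bases.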

How the results depend on the processing

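Under the alternatives, 456 values of level moved by less than 1 SD between mice and 6 by more, as did 319 and 11 shares of cells. Without the 1% of cells holding most, the mean over all cells was 3015 CPM for Ptgds and 0 CPM for Ttr. Thinned to 500 UMIs, 87.5% of oligodendrocytes held a Ptgds UMI (92.7% unthinned). The top 1% of cells held 22.4% of the Ptgds and 28.7% of the haemoglobin UMIs, and the top 5% held 54.96% and 53.2%. For haemoglobin-high cells, 23 genes were called without the filter on low counts and 1 with 1 matched cell. For Ptgds-high oligodendrocytes (83 calls), DESeq2 gave 25, no filter 55, no replicate block 26, and leaving out 1 mouse 27 to 100. For the other types (28 calls), DESeq2 gave 6, all higher, no replicate block 0 (66 at an unadjusted p below 0.05), a limit of 10 UMIs 17, 1 matched cell 13, no VLMC and COP 15, and leaving out 1 mouse 11 to 38. The cause was not tested. For named genes, 394 values kept direction and call and 148 lost the call with the direction kept. Dcn reversed to -0.038 with 1 matched cell. A limit of 10 UMIs left no test for haemoglobin, and Ttr had one only at 3 UMIs.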
